A study of Mus musculus with 9 samples.

Results

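Zmiz1, Zmiz2, Pias1, Pias2, Pias3, Pias4 and Ncoa4, which encode proteins known as coregulators of nuclear hormone receptors, were followed in mouse testis after injection of inhibitors of KIFC1, a kinesin motor of the spindle and of the manchette of spermatids. The 7 genes were taken by symbol from the 19991 genes of the count table, and all 7 passed the filter on low counts. The set was chosen by the Zmiz2 counts, which were higher with both inhibitors than in Control, so the Zmiz2 values against Control are given as a description with no test. ICR mice, which are outbred, were 8 weeks old, and their testis RNA was sequenced after they were given AZ82 at 1 µM (AZ82, 3 libraries), CW069 at 50 µM (CW069, 3 libraries) or PBS (Control, 3 libraries). The doses of the 2 inhibitors differed. The labels give neither the time after injection nor whether the samples of a group came from separate animals, so p-values cover only the variation among these libraries, some of which may be technical.

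Nuclear receptors bind small hormones such as steroids and switch genes on or off with the help of coregulator proteins; in testis, steroid signalling runs through Sertoli, Leydig and peritubular myoid cells, on which germ cells depend. The PIAS proteins are SUMO E3 ligases, which attach small SUMO proteins to many transcription factors, and they can raise or lower a factor's activity. Zmiz1 (also Zimp10) and Zmiz2 (also Zimp7) are coactivators that share with the PIAS proteins a zinc-binding SP-RING (MIZ) domain. Ncoa4 was described as a nuclear receptor coactivator and is also the cargo receptor that takes ferritin to the lysosome, which frees its iron.

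The SP-RING domain is what ties 6 of the 7 genes into a family, so its core is shown for 5 of them, to set the Zmiz pair against Pias genes that lay above Control (Pias1) and that overlapped with it (Pias3). The stretch was found by translating the GENCODE M21 coding transcripts (GRCm38) and searching for a residue pattern. The stretch had to open with a cysteine and a histidine ahead of a glutamine, cysteine (or serine), phenylalanine and aspartate. At its end it had to hold a tryptophan and a pair of cysteines with a proline between them. It spans 27 codons in each, and capitals mark the codons of the cysteine, the histidine and the closing cysteines, read 5′ to 3′ along the transcript:
Zmiz2: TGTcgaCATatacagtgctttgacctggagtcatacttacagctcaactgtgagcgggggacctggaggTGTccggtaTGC
Zmiz1: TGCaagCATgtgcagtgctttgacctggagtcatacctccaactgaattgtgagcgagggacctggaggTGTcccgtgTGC
Pias1: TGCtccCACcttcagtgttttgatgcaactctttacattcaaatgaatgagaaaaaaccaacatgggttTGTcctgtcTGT
Pias3: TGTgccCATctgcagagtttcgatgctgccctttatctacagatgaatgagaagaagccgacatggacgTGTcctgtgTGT
Pias4: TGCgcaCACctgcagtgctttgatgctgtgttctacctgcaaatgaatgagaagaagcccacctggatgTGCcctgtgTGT
Zmiz2 and Zmiz1 were identical at 25 of 27 codons at the amino acid level (92.6%) and at 82.7% of bases. Among the 4 Pias genes, amino acid identity ran from 81.5% (Pias1 with Pias3 and with Pias4) to 88.9% (Pias2 with Pias3). Between a Zmiz and a Pias gene it was 55.6% or 59.3%. The residues that the pattern required are shared by construction, and each of these identities includes them. No match to the pattern was found in the coding transcripts of Ncoa4.

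Totals ran from 13856070 to 18102593 counts per library, and levels are CPM, reads relative to the TMM-scaled total. All 59 markers of 11 testis cell types and other cells that a testis sample can hold had counts in all 9 libraries. Control 3 was low in late germ cell transcripts. Its 6 elongating spermatid markers summed to 4178 CPM, against 10582 and 11838 CPM in the other Control libraries. Values without it are given for Zmiz2, Zmiz1, Pias1, Pias2, Pias4 and the main marker lists.

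Per kilobase of the longest coding transcript, the genes fell into a high and a low tier. Pias2 led with 188 ± 1.79 CPM per kb after AZ82, 191 ± 3.55 after CW069 and 177 ± 5.14 in Control (SD, n = 3 each). Zmiz2 came next, with 76.3 ± 4.19, 78.5 ± 7.95 and 56.9 ± 3.03 CPM per kb in the same groups. Pias4 and Pias1 followed and did not differ beyond their spread, with means over 9 libraries of 51.4 ± 3.19 and 50.3 ± 3.78 CPM per kb. Ncoa4 had a mean of 32.5 ± 1.35 CPM per kb. The low tier held Zmiz1 at 3.49 ± 0.468 and Pias3 at 2.91 ± 0.238 CPM per kb (SD, n = 9). The ranges of Zmiz1 and Pias3 over the libraries overlapped (2.90 to 4.17 and 2.62 to 3.32 CPM per kb). With the union of all annotated exons as the length, an alternative chosen after seeing the data, Pias1 stood above Pias4 (41.0 and 35.7 CPM per kb) and Pias3 above Zmiz1 (2.18 and 2.09 CPM per kb), while the other places were the same.

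**Figure D1:**
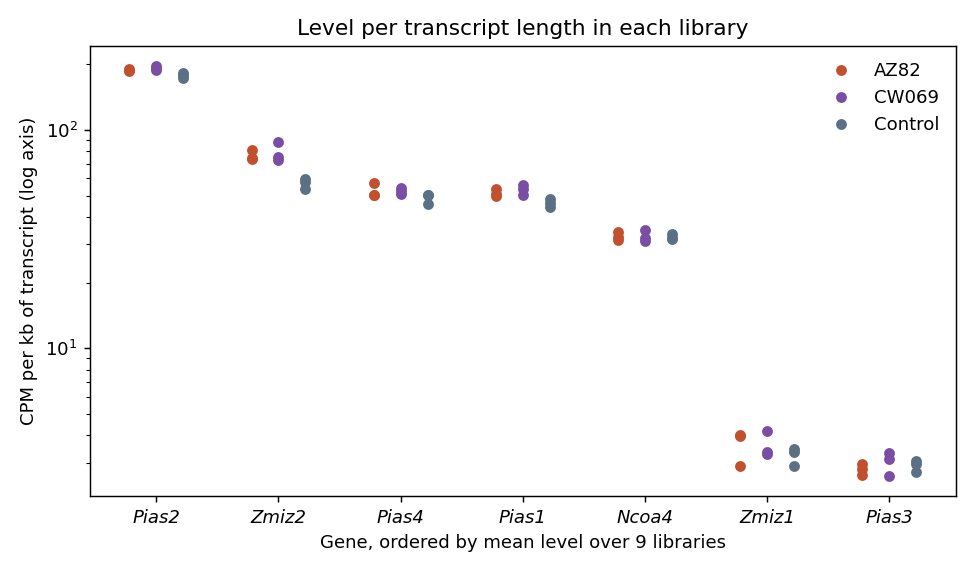
Level of the 7 genes in CPM per kb of the longest coding transcript (log axis), 1 point per library, colored by group. Pias2 lies highest at 172 to 195 CPM per kb and Pias3 lowest in mean, at 2.62 to 3.32 CPM per kb.

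Zmiz2 was the gene on which the choice rested, and its libraries separated by treatment. It stood at 350.4, 322 and 317 CPM in AZ82 libraries 1 to 3 and at 313, 326 and 378 CPM in CW069 libraries 1 to 3, set against 257, 249 and 231 CPM in Control libraries 1 to 3. All 6 inhibitor libraries lay above all 3 Control libraries, with the gap running from 313 CPM in the lowest inhibitor library to 257 CPM in the highest Control library. The log2 fold change was 0.42 ± 0.08 for AZ82 and 0.46 ± 0.08 for CW069 (SE), given without a test; both share the same Control libraries. With 1 library left out at a time it ran from 0.38 to 0.46 for AZ82 and from 0.38 to 0.52 for CW069. Without Control 3 it was 0.38 for AZ82 and 0.42 for CW069. These are levels in whole testis, in which more cells of a type and more RNA per cell cannot be told apart.

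Zmiz1, the close relative of Zmiz2, lay far lower per length and did not separate in this way. It stood at 29.7, 21.7 and 30.2 CPM in AZ82 libraries 1 to 3 and at 24.7, 31.2 and 25.1 CPM in CW069 libraries 1 to 3, set against 25.1, 25.9 and 21.7 CPM in Control libraries 1 to 3. The groups overlapped, with AZ82 2 and Control 3 at the low end. For AZ82 the log2 fold change of Zmiz1 was 0.16 ± 0.14 (95% interval -0.14 to 0.47; adjusted p = 0.716) and, after CW069, 0.15 ± 0.14 (-0.15 to 0.46; adjusted p = 0.807), neither past the threshold. With 1 library left out at a time it ran from 0.08 (without AZ82 3) to 0.30 (without AZ82 2) for AZ82 and from 0.04 (without CW069 2) to 0.21 (without CW069 1) for CW069. Without Control 3 it was 0.09 for AZ82 and 0.08 for CW069. The ratio of Zmiz2 to Zmiz1 per kilobase was 20.4, 25.7 and 18.2 in AZ82 libraries 1 to 3 and 21.9, 18.1 and 26.1 in CW069 libraries 1 to 3, set against 17.7, 16.6 and 18.5 in Control libraries 1 to 3. The ratios of AZ82 3 and CW069 2 lay within the Control range. An antisense gene, Zmiz1os1, shares 297 exon bases with Zmiz1; whether strand was used in counting is not given in the sources used here, so reads of that stretch cannot be assigned to one of the 2.

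**Figure D2:**
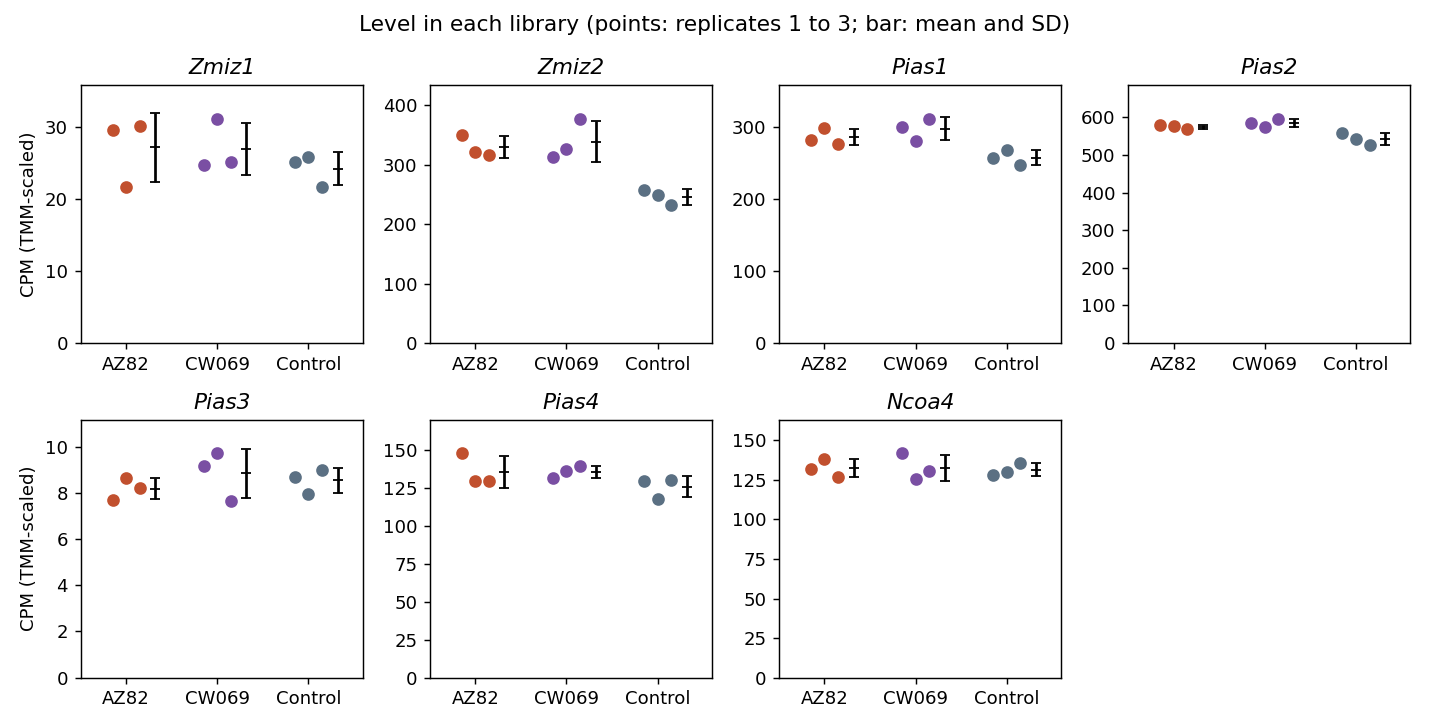
Level of each gene in CPM (vertical axes start at 0) in the 3 libraries of AZ82, CW069 and Control; points are libraries and the bar beside them is the mean with SD. Zmiz2 lies at 313 to 378 CPM in the inhibitor libraries and at 231 to 257 CPM in Control, while Ncoa4 overlaps in all groups.

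On TMM-scaled CPM, Pias1 and Pias2, both SUMO ligases, lay above Control in every inhibitor library, by smaller amounts than Zmiz2. Pias1 stood at 282, 299 and 276 CPM in AZ82 libraries 1 to 3 and at 299, 279.6 and 311 CPM in CW069 libraries 1 to 3, set against 256, 268 and 246 CPM in Control libraries 1 to 3. For AZ82 the log2 fold change of Pias1 was 0.15 ± 0.07 (95% interval 0.00 to 0.30; adjusted p = 0.562) and, after CW069, 0.21 ± 0.07 (0.06 to 0.36; adjusted p = 0.539). Without Control 3 it was 0.12 for AZ82 and 0.18 for CW069. Pias2, whose transcript is known to be abundant in testis, stood at 579.99, 576 and 569 CPM in AZ82 libraries 1 to 3 and at 585, 575 and 597 CPM in CW069 libraries 1 to 3, set against 557, 543 and 526 CPM in Control libraries 1 to 3. The log2 fold change of Pias2 was 0.09 ± 0.06 (-0.04 to 0.21; adjusted p = 0.660) for AZ82 and 0.11 ± 0.06 (-0.02 to 0.24; adjusted p = 0.698) for CW069. Without Control 3 the Pias2 values were 0.06 for AZ82 and 0.09 for CW069. With library size in place of TMM, the AZ82 values were 0.07 for Pias1 and 0.0068 for Pias2. The TMM factor of Control 3 was 1.09, against 0.97 to 1.02 in the other libraries. The separation from Control is thus read on TMM-scaled CPM only. Neither gene passed the test, and the Pias2 intervals end at 0.21 and 0.24.

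Pias4 and Pias3 differed less clearly from Control. Pias4, a ligase that represses several transcription factors, stood at 147, 129 and 129 CPM in AZ82 libraries 1 to 3 and at 131, 136 and 139 CPM in CW069 libraries 1 to 3, set against 129, 118 and 129.6 CPM in Control libraries 1 to 3. On TMM-scaled CPM, its CW069 libraries all lay above Control and 2 of its AZ82 libraries did not. The log2 fold change was 0.11 ± 0.07 for each inhibitor (adjusted p = 0.653 for AZ82 and 0.748 for CW069). The AZ82 value was 0.04 without AZ82 1 and 0.06 without Control 2, and the CW069 value was 0.06 without Control 2. Without Control 3 both were 0.13. Pias3, first described as an inhibitor of STAT3, was covered by only 106 to 142 reads per library. It stood at 7.71, 8.64 and 8.23 CPM in AZ82 libraries 1 to 3 and at 9.18, 9.72 and 7.67 CPM in CW069 libraries 1 to 3, set against 8.70, 7.96 and 8.98 CPM in Control libraries 1 to 3. The groups overlapped, with a log2 fold change of -0.06 ± 0.12 for AZ82 (95% interval -0.34 to 0.22; adjusted p = 0.895) and, after CW069, 0.05 ± 0.12 (-0.22 to 0.32; adjusted p = 0.955). With 1 library left out at a time, Pias3 ran from -0.11 to -0.02 for AZ82 and from -0.03 to 0.15 for CW069.

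Of the 7 genes, Ncoa4 had the log2 fold changes nearest to 0 against Control. It stood at 132, 138 and 127 CPM in AZ82 libraries 1 to 3 and at 142, 125 and 130.4 CPM in CW069 libraries 1 to 3, set against 128, 130.2 and 136 CPM in Control libraries 1 to 3. Its log2 fold change was 0.01 ± 0.07 for each inhibitor, with a 95% interval of -0.14 to 0.16 (adjusted p = 0.968 for AZ82 and 0.981 for CW069), and with library size in place of TMM it was -0.07 for AZ82 and -0.04 for CW069. A processed pseudogene, Gm6768, matches 1878 bases of the Ncoa4 transcript at 99.9% identity. It is not a row of the count table, and reads that fit both places may be missing from the Ncoa4 counts.

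**Figure D3:**
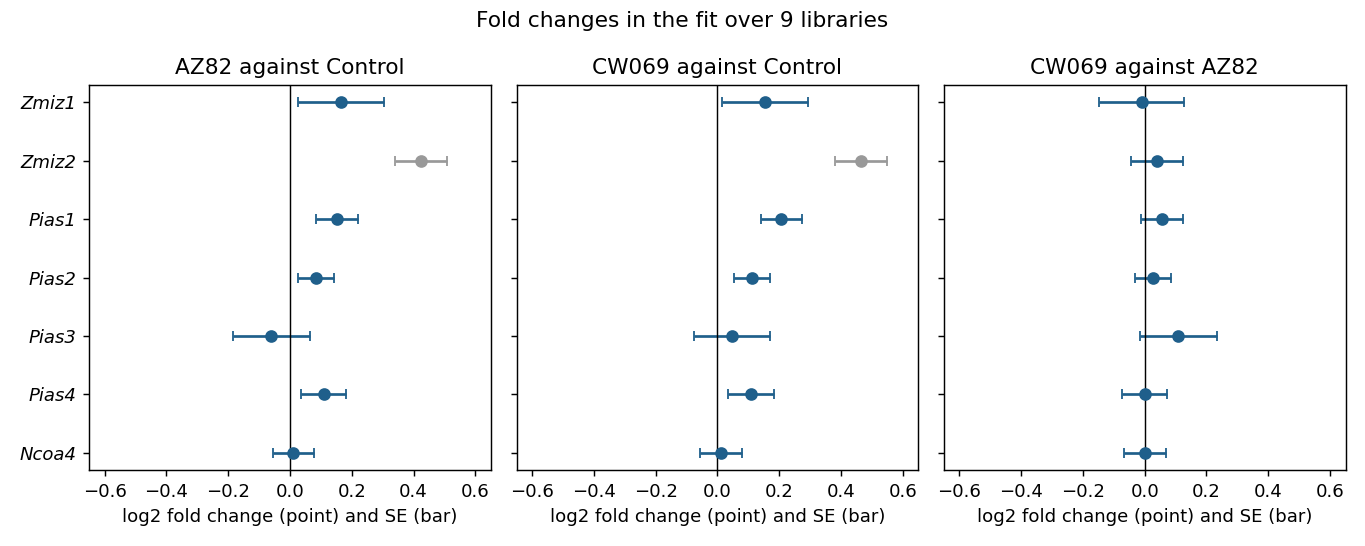
Log2 fold change (point) and its SE (bar) of the 7 genes in the 3 comparisons, from one fit over 9 libraries. Zmiz2 against Control is drawn in grey, as the value on which the genes were picked, at 0.42 and 0.46; in CW069 against AZ82 the 7 values run from -0.01 to 0.11.

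Over the family, AZ82 libraries did not overlap with Control, and lay above it, in 3 of the 7 genes (Zmiz2, Pias1 and Pias2), where 6.65% of all 15834 genes tested did so. After CW069 the count was 4 of 7 (these and Pias4), where 6.13% of all genes did so. Both counts use TMM-scaled CPM, and no other scaling is given for them. Of the 6 genes other than Zmiz2, only Pias1 had an unadjusted p under 0.05, in both comparisons, where 4.04% of all genes were higher after AZ82 and 3.63% after CW069. These contrasts chose the genes, so nothing is read from the counts. The median log2 fold change of the 7 was 0.11 in each comparison, against -0.00 over all genes. Over all genes, edgeR called 0% at an adjusted p under 0.05 in each of the 3 comparisons. At an unadjusted p under 0.05 there were 1399, 1162 and 787 genes for AZ82 against Control, CW069 against Control and CW069 against AZ82. After adjustment DESeq2 called 6, 28 and 13 genes in these comparisons, and limma-voom 1, 0 and 0.

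Round spermatid markers were also higher in most inhibitor libraries. The 5 markers summed to 1066, 1117 and 1029 CPM in AZ82 libraries 1 to 3 and to 1018, 968 and 1079 CPM in CW069 libraries 1 to 3, set against 967, 1006 and 762 CPM in Control libraries 1 to 3. All 5 had a log2 fold change above 0 in both comparisons, with a median of 0.15 for AZ82 and 0.16 for CW069, and none was at 0 in any library. Without Control 3 all 5 were again above 0, with a median of 0.11 for AZ82 and 0.03 for CW069. The sum correlated over the 9 libraries with Zmiz2 (Pearson's r = 0.74, Spearman's rho = 0.72), Pias1 (0.80 and 0.80) and Pias2 (0.80 and 0.73). Without the 2 libraries farthest from the median of the sum, r was 0.69, 0.68 and 0.59. The 6 elongating spermatid markers summed to 10988, 11825 and 13428 CPM in AZ82 libraries 1 to 3 and to 10135, 8703 and 9992 CPM in CW069 libraries 1 to 3, set against 11838, 10582 and 4178 CPM in Control libraries 1 to 3. All 6 were above 0 for AZ82 (median 0.42) and 4 of 6 for CW069 (median 0.04), and without Control 3 the counts were 5 of 6 (median 0.09) and 1 of 6 (median -0.27). Their sum had r = 0.49 with Zmiz2 over the 9 libraries and -0.34 without the 2 farthest libraries. The 6 Leydig cell markers ran the other way, with r = -0.69 for Zmiz2, -0.51 for Pias1 and -0.71 for Pias2 over the 9 libraries. The points share library depth and treatment group, and the part of the markers in the differences was not tested.

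Markers of the somatic cells were read beside the same genes. The 6 Leydig cell markers summed to 1329, 1558 and 1313 CPM in AZ82 libraries 1 to 3 and to 1211, 1193 and 1254 CPM in CW069 libraries 1 to 3, set against 1469, 1624 and 1523 CPM in Control libraries 1 to 3; 5 of 6 were below 0 for AZ82 and 6 of 6 for CW069. The 8 Sertoli cell markers summed to 990 to 1096 CPM in AZ82 and 979 to 1221 CPM in CW069 libraries, against 1077 to 1126 CPM in Control, with 7 of 8 below 0 for AZ82 and 2 of 8 for CW069. Most of that sum was Clu, with means of 877 CPM in AZ82, 941 CPM in CW069 and 921 CPM in Control. The 5 peritubular myoid markers summed to 155 to 175 CPM in AZ82 and 172 to 198 CPM in CW069 libraries, against 164 to 176 CPM in Control, with 3 of 5 below 0 for AZ82 and 0 of 5 for CW069. Without Control 3, the counts below 0 were 5 of 6 Leydig, 6 of 8 Sertoli and 2 of 5 myoid markers for AZ82, and 6 of 6, 3 of 8 and 1 of 5 for CW069. None of these markers was at 0 in any library, and their part in the differences was not tested.

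Genes that depend on androgen in Sertoli cells lay on both sides of 0. Of 8 such genes, 5 were below 0 after AZ82 (median log2 fold change -0.01) and 2 after CW069 (median 0.02, and -0.03 with library size scaling). At an unadjusted p under 0.05, 1 of 8 was lower after AZ82, where 4.79% of all genes were, and 1 of 8 was higher after CW069, where 3.63% of all genes were. The first was Drd4, a dopamine receptor gene, at 6.62, 6.50 and 5.05 CPM in AZ82 libraries 1 to 3 against 7.45, 7.32 and 9.18 CPM in Control libraries 1 to 3 (log2 fold change -0.40 ± 0.15; adjusted p = 0.554). For CW069 it had -0.14 ± 0.15 (adjusted p = 0.843). The second was Tubb3, a beta tubulin, at 39.0, 39.8 and 37.5 CPM in CW069 libraries 1 to 3 set against 36.9, 33.6 and 33.5 CPM in Control libraries 1 to 3 (0.16 ± 0.07; adjusted p = 0.675).

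Other nuclear receptor coregulators had medians near that of all genes. Of 25, 16 were above 0 after AZ82 (median 0.03, and -0.05 with library size scaling) and 12 after CW069 (median -0.01, and 0.00 with RLE scaling). At an unadjusted p under 0.05, 1 of 25 was lower after AZ82 (4.79% of all genes) and 1 of 25 was higher after CW069 (3.63% of all genes). The first was Ccnd1, the cyclin D1 gene, whose protein can also repress nuclear receptors. It stood at 7.57, 7.78 and 6.06 CPM in AZ82 libraries 1 to 3 against 8.56, 9.95 and 8.58 CPM in Control libraries 1 to 3 (log2 fold change -0.34 ± 0.14; adjusted p = 0.554). The second was Ncoa1, a steroid receptor coactivator with histone acetyltransferase activity. It stood at 50.5, 51.0 and 59.7 CPM in CW069 libraries 1 to 3 set against 40.9, 39.7 and 49.1 CPM in Control libraries 1 to 3 (0.32 ± 0.10; adjusted p = 0.539), and had 0.19 ± 0.10 for AZ82 (adjusted p = 0.598).

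The chaperones of steroid receptors, which keep them ready to bind hormone, gave 6 of 11 above 0 after AZ82 (median 0.03, and -0.06 with library size scaling) and 3 of 11 after CW069 (median -0.04). The only one past an unadjusted p under 0.05 was Fkbp5, a co-chaperone and a well-known androgen and glucocorticoid target. It stood at 61.0, 63.4 and 57.4 CPM in AZ82 libraries 1 to 3 and at 55.5, 66.7 and 50.03 CPM in CW069 libraries 1 to 3, set against 72.7, 63.6 and 74.4 CPM in Control libraries 1 to 3. All AZ82 libraries lay below Control, by a narrow margin at AZ82 2, and CW069 2 lay within the Control range. Its log2 fold change was -0.21 ± 0.10 for AZ82 (adjusted p = 0.582) and -0.29 ± 0.10 for CW069 (adjusted p = 0.617; lower, as 3.71% of all genes were at an unadjusted p under 0.05).

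Of the SUMO machinery that the PIAS ligases work with, 16 of 20 genes were below 0 after AZ82 (median -0.04) and 11 of 20 after CW069 (median -0.03). Of all genes, 50.3% and 51% were. Over the alternative settings the AZ82 median ran from -0.12 to -0.02. At an unadjusted p under 0.05, 1 of 20 was lower after AZ82 (4.79% of all genes) and 1 of 20 after CW069 (3.71% of all genes). SWI/SNF chromatin remodelling subunits, to which human ZMIZ2 is known to bind, had 8 of 14 above 0 after AZ82 (median 0.02) and 9 of 14 after CW069 (median 0.01), and medians of -0.06 and -0.04 with library size scaling, with 0 at an unadjusted p under 0.05 in either.

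Around Ncoa4, 9 of 10 genes of ferritin and iron turnover were below 0 in each comparison, where 50.3% of all genes were for AZ82 and 51% for CW069, with a median of -0.08 for AZ82 and -0.09 for CW069, while Ncoa4 itself was at 0.01. At an unadjusted p under 0.05, 2 of 10 were lower after AZ82, where 4.79% of all genes were, and 0 of 10 after CW069, where 3.71% were. Ftl1, the ferritin light chain, stood at 84.5, 97.0 and 98.6 CPM in AZ82 libraries 1 to 3 and at 110.3, 108 and 98.4 CPM in CW069 libraries 1 to 3, set against 129, 106 and 114 CPM in Control libraries 1 to 3. The log2 fold change of Ftl1 was -0.32 ± 0.09 for AZ82 (adjusted p = 0.554) and -0.14 ± 0.09 for CW069 (adjusted p = 0.738). Fth1, the ferritin heavy chain, lay near 0, at -0.03 ± 0.07 for AZ82 (adjusted p = 0.921) and -0.02 ± 0.07 for CW069 (adjusted p = 0.973). Slc11a2, an iron importer, had -0.21 ± 0.09 for AZ82 (39.0 ± 0.509 CPM in AZ82 against 45.2 ± 2.96 CPM in Control, SD, n = 3 each; edgeR adjusted p = 0.554). For CW069 its value was -0.04 ± 0.09 (adjusted p = 0.936). Reads of Ftl1 can be shared with ferritin pseudogenes.

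**Figure D4:**
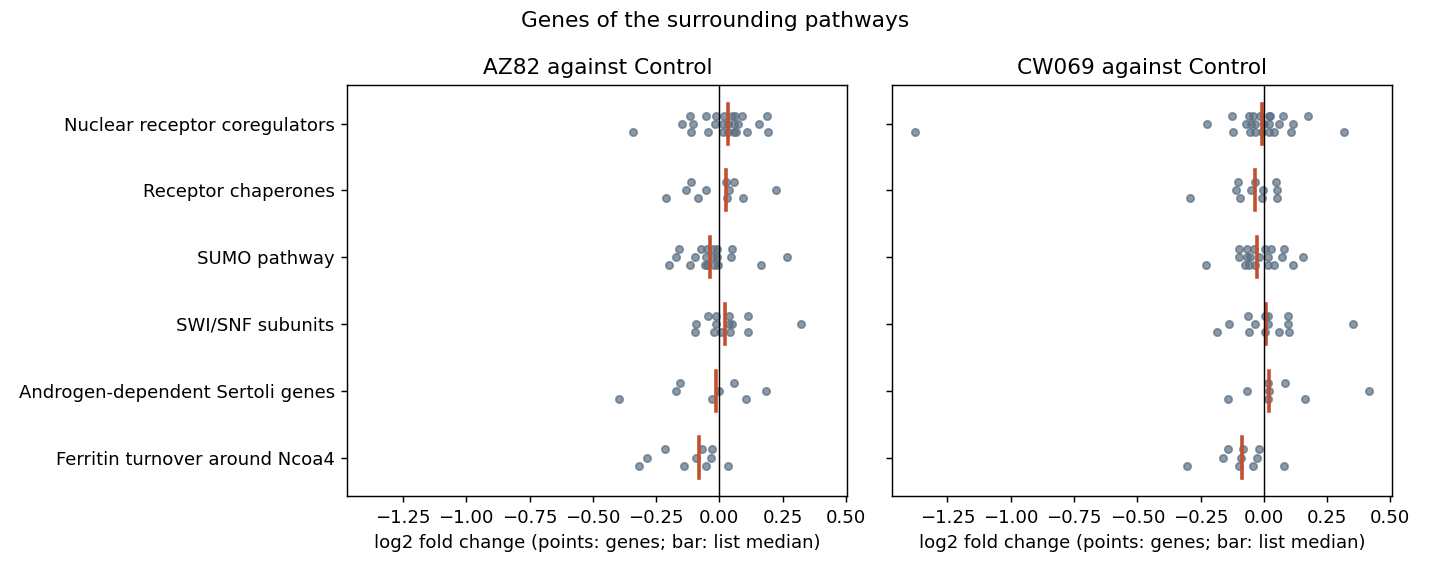
Log2 fold changes of the genes of 6 surrounding lists against Control (points, genes; bar, list median), for AZ82 on the left and CW069 on the right. List medians lie between -0.09 and 0.03; the ferritin list has 9 of 10 points left of 0 on both sides, and the far point of the coregulators after CW069 is Nr0b2, at -1.38 and at most 1.26 CPM in every library.

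The inhibitors were also set against each other, a comparison the choice of genes did not use, although their doses differed. None of the 7 genes passed the test, 0 of 7 had an unadjusted p under 0.05 (2.58% of all genes were higher in CW069 and 2.39% lower), and in 0 of 7 did the groups stand apart (5.52% and 5.8%). Zmiz2 had a log2 fold change of 0.04 ± 0.08 for CW069 against AZ82 (95% interval -0.15 to 0.23; adjusted p = 0.999), and -0.05 without CW069 3, its highest library. Zmiz1 had -0.01 ± 0.14 (-0.32 to 0.30), Pias1 0.05 ± 0.07 (-0.09 to 0.20), Pias2 0.03 ± 0.06 (-0.10 to 0.16) and Pias3 0.11 ± 0.12 (-0.17 to 0.38). Pias4 had -0.00 ± 0.07 and Ncoa4 0.00 ± 0.07. Of the 88 genes in the surrounding lists, the SWI/SNF ATPase gene Smarca4, whose human protein is known to bind ZMIZ2, was lower at an unadjusted p under 0.05, at 186, 197 and 217 CPM in CW069 libraries 1 to 3 set against 244, 209 and 227 CPM in AZ82 libraries 1 to 3 (-0.18 ± 0.08; adjusted p = 0.985).

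Within the family, the profile over the 9 libraries that was most like that of Zmiz2 belonged to Pias2 (Pearson's r = 0.94, Spearman's rho = 0.82; 0.87 without the 2 libraries farthest from the Zmiz2 median), followed by Pias1 (0.87, 0.77; 0.78). Pias2 stood ninth of the 14962 genes whose mean reached 1 CPM by this r, and Pias1 at place 115, while Pias4 stood at 664, Zmiz1 at 3044, Ncoa4 at 7878 and Pias3 at 10346. After the group means were removed, r with Zmiz2 was 0.76 for Pias2, 0.49 for Pias4, 0.45 for Pias1, 0.15 for Zmiz1, -0.38 for Ncoa4 and -0.81 for Pias3. The 5 genes with the highest r were Cmklr1 (0.97), the chemerin receptor gene, Mtx1 (0.97), a metaxin of the mitochondrial outer membrane, Cracd (0.96), a regulator of actin capping, Ccdc92 (0.96), a coiled-coil protein gene, and Ipo4 (0.95), a nuclear import receptor gene. Within groups their r ran from 0.77 (Ipo4) to 0.97 (Ccdc92). Cmklr1 stood at 51.1, 44.1 and 47.3 CPM in AZ82 libraries 1 to 3 and at 46.0, 48.4 and 55.8 CPM in CW069 libraries 1 to 3, set against 41.7, 37.2 and 35.8 CPM in Control libraries 1 to 3, and all inhibitor libraries lay above Control. These are descriptions over 9 libraries that share treatment and depth. The Zmiz2 values that chose the genes enter each r, so the ranks over 9 libraries in part restate the difference from Control.

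**Figure D5:**
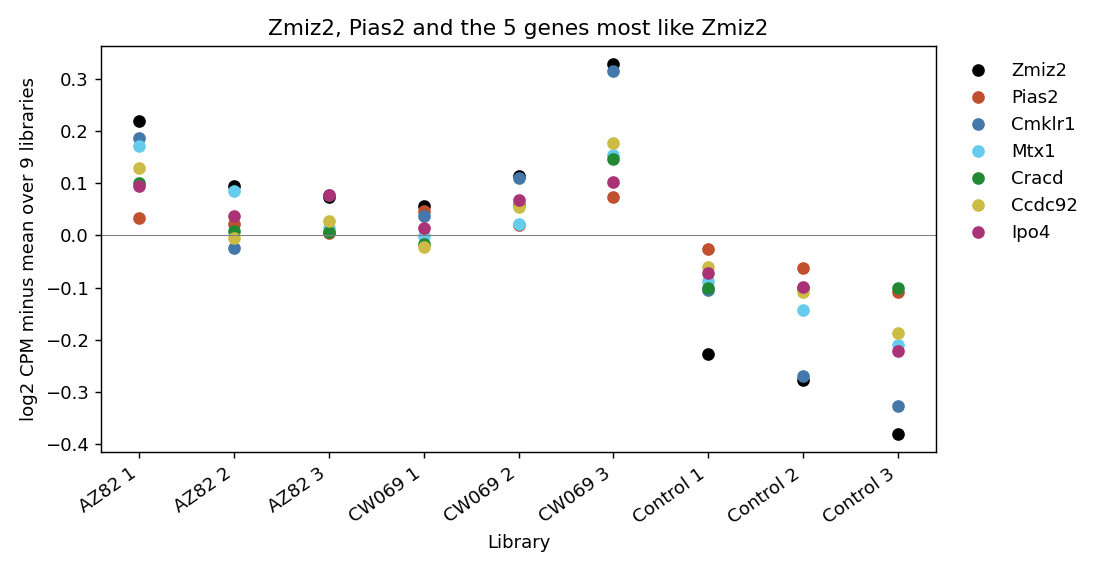
Log2 CPM of Zmiz2, Pias2 and the 5 genes most like Zmiz2, each minus its own mean over 9 libraries; points are libraries, colored by gene. All 7 lie below their mean in the 3 Control libraries, and Zmiz2 spans the widest range, with its highest point in CW069 3 (378 CPM) and its lowest in Control 3 (231 CPM).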

How the data were processed

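Testis RNA of 9 libraries, 3 per group, was made into stranded mRNA libraries, per the labels' protocols. The authors deposited raw counts of reads per gene, with no normalization; the submitters' processing notes name Trimmomatic, HISAT2, HTSeq and GRCm39, without settings. Each library's own file equals its column of the joint table. From these counts, genes were filtered with filterByExpr (15834 of 19991 kept), scaled with TMM and fitted over all 9 libraries with 1 coefficient per group (6 residual degrees of freedom) in edgeR 4.0.16 (R 4.3.3). The quasi-likelihood F test, two-sided, had its p-values adjusted by Benjamini-Hochberg over these genes, and every adjusted p is from it unless another tool is named; the threshold was 0.05. Intervals are 95% and use the moderated degrees of freedom. The pipeline was tested on simulated counts. Totals of 13856070 to 18102593 limit precision for genes of few reads, such as Pias3.

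The 7 genes and the 6 surrounding lists were chosen with earlier results of these data known. The rule names all 7 genes, up to 3 genes of each list by smallest p per comparison, and the 5 genes nearest to Zmiz2 by Pearson's r of log2 CPM. Of the list genes, those with an unadjusted p under 0.05 are given, except in the SUMO list. This limit was set after their values were seen. Lengths, overlaps and sequences came from GENCODE M21 (GRCm38), an earlier build, matched by symbol for all 7 genes, and no coordinate is given. The same-numbered libraries of different groups did not deviate together (r from -0.16 to 0.0586). Replicates were compared for duplicates: every pair within a group differed beyond sampling noise. Control 3 stood apart over all genes. Its chi-square per degree of freedom was 30.7 with Control 1 and 26 with Control 2, against 3.48 to 7.53 for the other pairs. The other settings were RLE or library size scaling, no low-count filter, a filter of 1 CPM in at least 3 libraries, limma-voom (limma 3.58.1), DESeq2 1.42.0, the 2 compared groups alone, the replicate number as a block, and each library left out; marker lists without Control 3 were added after seeing the data. Some genes of the surrounding lists are not reported here.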

Additional observations from a re-analysis of the deposited data

How the results depend on the processing

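Zmiz2 was above Control under each of the 17 alternatives in both comparisons (log2 fold change 0.35 to 0.46 for AZ82 and 0.38 to 0.52 for CW069). Zmiz1, Pias1, Pias2 and Pias4 also stayed above 0. Their lowest values for AZ82 were 0.08, 0.07, 0.0068 and 0.03, in that order. Those for CW069 were 0.04, 0.16, 0.07 and 0.06. For Pias1 and Pias2 the lowest AZ82 value came with library size scaling. None of the 7 genes, where tested, and none of the list genes run under these alternatives passed the threshold. The count of genes called, 0 as reported, was higher with library size scaling (1 for AZ82 and 1 for CW069 against Control), DESeq2 (6, 28 and 13 for AZ82 against Control, CW069 against Control and CW069 against AZ82), limma-voom (1 for AZ82 against Control) and the 2 compared groups alone (8 for CW069 against AZ82). With a library left out it ran from 0 to 4, 0 to 7 and 0 to 4 in these comparisons. The calls came without Control 2 (4) for AZ82, without Control 1 (1), Control 2 (7) or CW069 3 (5) for CW069, and without Control 1 (1), AZ82 2 (4) or CW069 3 (4) for CW069 against AZ82; the cause was not tested. Signs turned for values near 0. With library size scaling, Ncoa4 had -0.0695 for AZ82 and -0.0371 for CW069, and in CW069 against AZ82 Zmiz1 had 0.0237 and Pias4 0.0314. In that comparison Pias4 also had 4.9e-05 with RLE, 0.00018 with DESeq2, 0.0020 with limma-voom and 0.0014 with the 2 groups alone, and Ncoa4 had -0.00043 with no filter and -0.00036 with limma-voom. Library size scaling moved the median of all genes by -0.08 for AZ82 and -0.05 for CW069. With a library left out, the ranges that crossed 0 were Ncoa4 (-0.0217 to 0.0420 for AZ82, -0.0388 to 0.0483 for CW069), Pias3 (-0.0255 to 0.145 for CW069) and Slc11a2 (-0.126 to 0.0343 for CW069), and, for CW069 against AZ82, Zmiz1 (-0.149 to 0.071), Zmiz2 (-0.0456 to 0.0994), Pias4 (-0.0327 to 0.0656) and Ncoa4 (-0.0453 to 0.0420).

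The replicate numbers are not known to pair the libraries. With a replicate block, 0 genes were called in each comparison, with 1094, 954 and 667 at an unadjusted p under 0.05, and Pias4 had 0.0017 for CW069 against AZ82.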

Other observations

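Smarcb1, a core SWI/SNF subunit, stood at 87.4 CPM in AZ82 1 and 84.8 CPM in CW069 3, against 52.9 and 53.6 CPM in the other AZ82 libraries, 54.0 and 58.5 CPM in the other CW069 libraries and 49.1 to 54.1 CPM in Control. It was singled out after its values were seen. AZ82 1 and CW069 3 are also the libraries in which Zmiz2 was highest within its group (350.4 and 378 CPM). The log2 fold change of Smarcb1 was 0.32 ± 0.21 for AZ82 (edgeR adjusted p = 0.637) and 0.35 ± 0.21 for CW069 (adjusted p = 0.717).

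Nr0b2, a corepressor of nuclear receptors, had the farthest fold change of the listed genes after CW069 (-1.38 ± 0.67; edgeR adjusted p = 0.689), at 0.34, 0.55 and 0.06 CPM in CW069 libraries 1 to 3, overlapping with 0.83, 0.32 and 1.26 CPM in the Control libraries.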
